A study of Mus musculus with 11 samples.

Results

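The 9 genes described here encode proteins that add, copy, remove and read DNA methylation: Dnmt1, Uhrf1 and Hells (maintenance), Dnmt3a and Dnmt3b (new methylation), Tet1, Tet2 and Tet3 (oxidation of methylated cytosine) and Mbd2 (a reader of methylated DNA). They were taken by name, as the rows of the count tables whose Ensembl identifier maps to these symbols, 9 of 56980 genes counted. Earlier results of these data were known when the list was chosen. RNA was sequenced from primary lung fibroblasts, connective tissue cells grown from the lungs of mice, with ribosomal RNA depleted. The cells came from 3 female and 3 male mice lacking cGAS (KO), and from 2 female and 3 male wild-type mice (WT), with 1 library per animal. cGAS is an enzyme that senses DNA in the cytosol. The labels give no strain, age, allele or passage number for either genotype. All groups were grown at 37 degrees Celsius in 5% CO2 and 5% O2 with 15% serum.

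Methylation of cytosine at CpG sites silences repeats, germline genes and imprinted alleles in somatic cells. UHRF1 binds sites that are methylated on the parental strand after replication and recruits DNMT1, which copies the mark onto the daughter strand, and the remodeller HELLS opens compact chromatin for this step. DNMT3A and DNMT3B set new marks, TET enzymes oxidise methylated cytosine as a first step of its removal, and MBD2 binds methylated CpG sites and brings in the deacetylase complex NuRD.

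Promoter sequences are shown for Dnmt1, Uhrf1 and Hells, the members with a motif of cell-cycle factors of the E2f family near a start site. All 3 were also highest in WT male 1 and lowest in WT female 2. Dnmt3b, Tet1 and Tet2 had their highest and lowest values in WT libraries too, in another order of libraries. The sequences are RefSeq promoters on GRCm38.p6, an older build than the GRCm39 used for the counts, and run from 250 bases before to 50 bases after the start. Capitals mark matches on either strand to the forms TTTCCCGC, TTTCGCGC, TTTGCCGC and TTTGGCGC.
Dnmt1, chr9:20952574-20952873, minus strand: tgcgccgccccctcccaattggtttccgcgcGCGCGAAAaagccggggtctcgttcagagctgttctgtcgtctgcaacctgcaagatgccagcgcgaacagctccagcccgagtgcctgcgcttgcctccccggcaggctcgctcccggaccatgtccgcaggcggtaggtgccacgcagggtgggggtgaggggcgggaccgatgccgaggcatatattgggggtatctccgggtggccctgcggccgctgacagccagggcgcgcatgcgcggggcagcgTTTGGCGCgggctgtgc
Uhrf1, chr17:56304063-56304362, plus strand: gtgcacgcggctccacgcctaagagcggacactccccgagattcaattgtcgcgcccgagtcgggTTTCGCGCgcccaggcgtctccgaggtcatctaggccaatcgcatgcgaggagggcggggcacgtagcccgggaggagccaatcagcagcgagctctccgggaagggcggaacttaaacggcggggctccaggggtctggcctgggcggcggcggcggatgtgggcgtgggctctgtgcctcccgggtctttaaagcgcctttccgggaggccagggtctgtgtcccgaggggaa
Hells, chr19:38930740-38931039, plus strand: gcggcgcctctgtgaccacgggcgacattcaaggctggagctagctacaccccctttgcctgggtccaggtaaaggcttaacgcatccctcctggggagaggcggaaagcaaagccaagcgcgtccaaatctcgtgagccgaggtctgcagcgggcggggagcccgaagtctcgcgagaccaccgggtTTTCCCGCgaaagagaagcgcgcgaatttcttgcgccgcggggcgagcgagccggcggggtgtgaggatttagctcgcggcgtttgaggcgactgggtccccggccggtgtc

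Positions count the first transcribed base as 1, with no position 0. The Dnmt1 promoter shown held TTTCGCGC on the opposite strand from position -219 and TTTGGCGC from position 34. The Uhrf1 promoter shown held TTTCGCGC from position -185, and the Hells promoter held TTTCCCGC from position -62. Dnmt1 and Uhrf1 have other listed starts, and none of those windows held a match. Which start these cells used was not tested. No match overlapped another. Among all 32851 promoters of this length, 744 (2.26%) held at least 1 of the 4 forms, against 3 of the 13 promoters listed for 8 of the members. The 3 promoters had 33, 33 and 34 CpG dinucleotides, against a median of 7 over all promoters. Member promoters without a match had 2 (another Dnmt1 start) to 57 (Tet2), and each of the 4 forms itself holds a CpG. A match describes letters in this window and was not tested as a binding site.

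Total counts per library ran from 27261958 to 48039328, and repeats took 5.31% to 10.2% of them, with the highest share in WT female 2. Levels are given as CPM, counts scaled to the library size, and 3 counts corresponded to 0.0624 to 0.110 CPM. Cgas, the targeted gene, had 52 to 111 counts in the 6 KO libraries, against 222 to 403 counts in the 5 WT libraries. Its log2 fold change was -1.99 (SE 0.16, adjusted p = 0.00102, edgeR quasi-likelihood test with Benjamini-Hochberg adjustment), and every KO library lay below every WT library. All 9 fibroblast markers were detected, and so were all 12 markers of leukocytes and macrophages. Of the 22298 genes and repeats tested over both sexes, edgeR called 1, Cgas, at an adjusted p under 0.05, or 0.00448%. An unadjusted p under 0.05 was found for 3827 entries, or 17.2%.

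None of the 9 genes was called between KO and WT over both sexes, against that background of 0.00448%, and all 9 passed the filter on low counts. Dnmt3a alone of the members had an unadjusted edgeR p under 0.05, where 17.2% of all entries did. The fitted differences were small: 8 of 9 were positive, with a median log2 fold change of 0.13, while the median over all entries tested was -0.02. DESeq2 also called 0 of the 9, where it called 2.45% of all entries. Limma-voom with quality weights called 1, Dnmt3a, where it called 14.6% of all entries. The ranges of KO and WT libraries overlapped for all 9 members, whereas 1.22% of all entries had groups that did not overlap.

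**Figure D1:**
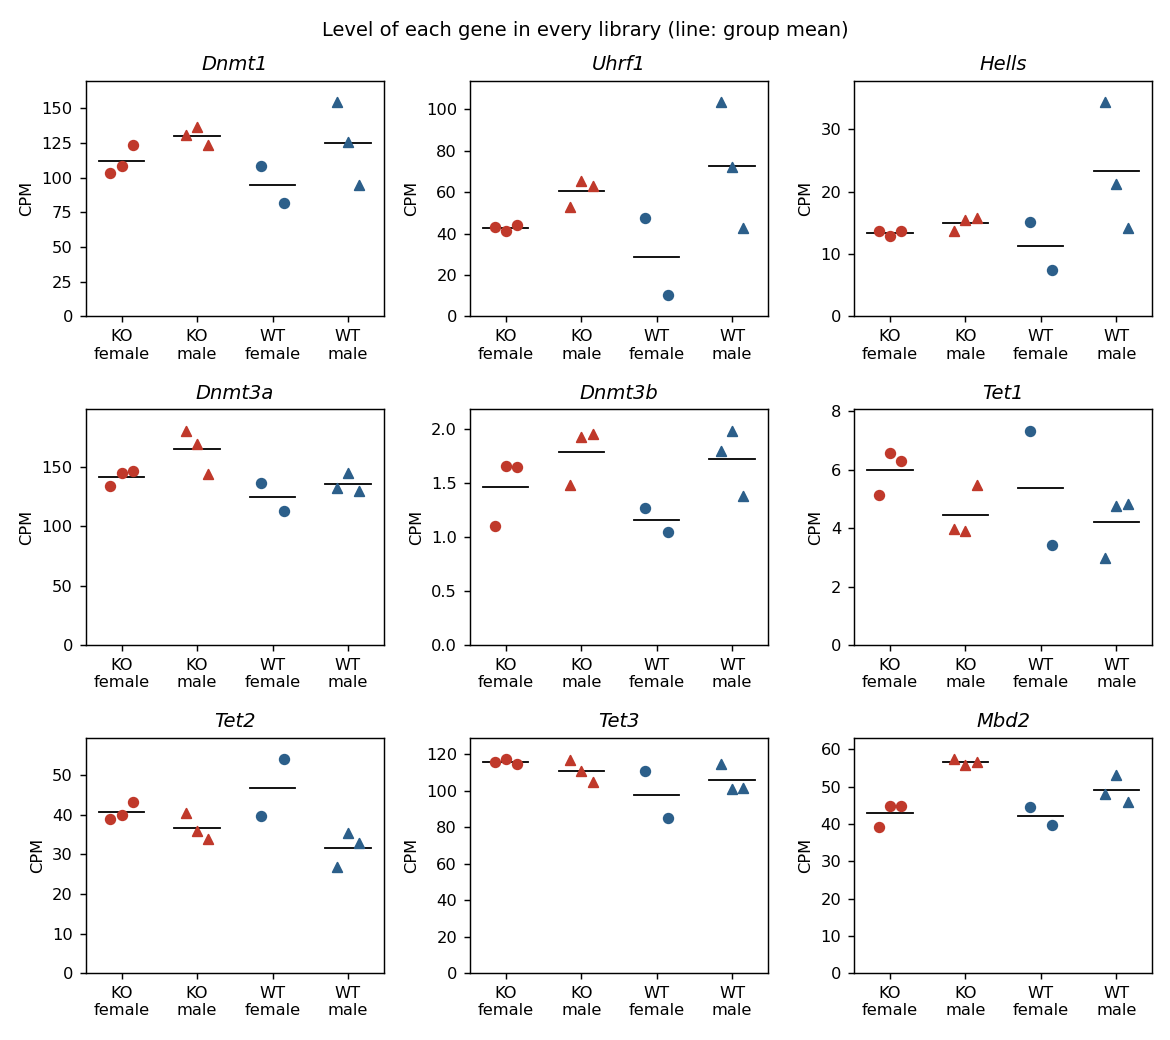
CPM of each of the 9 genes (y axis) in every library, by genotype and sex (x axis), with KO in red and WT in blue, circles for females, triangles for males and a line at each group mean. The KO and WT libraries overlap in every panel, and the WT libraries spread more widely than the KO libraries for Uhrf1 and Hells.

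Dnmt1, the copying methyltransferase, was abundant in every library. It had 103, 108 and 124 CPM in KO females, 131, 137 and 123 CPM in KO males, 108 and 82.0 CPM in WT females, and 154, 126 and 94.9 CPM in WT males. The highest and the lowest library were both WT, and all KO values lay between them. KO libraries averaged 121 ± 12.9 CPM (SD, n = 6) and WT libraries 113 ± 28.1 CPM (SD, n = 5). Its log2 fold change was 0.14 (SE 0.12, adjusted p = 0.592, edgeR), so the difference was smaller than the spread between WT animals.

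Uhrf1, which directs DNMT1 to replicated DNA, varied most among WT animals. KO females had 43.1, 41.2 and 43.9 CPM, KO males 53.0, 65.2 and 62.8 CPM, WT females 47.4 and 10.3 CPM, and WT males 103, 72.3 and 42.9 CPM. WT female 2 stood far below all other libraries and WT male 1 far above them. The average was 51.5 ± 10.5 CPM over KO libraries (SD, n = 6) and 55.2 ± 34.8 CPM over WT libraries (SD, n = 5). The log2 fold change was 0.09 (SE 0.35, adjusted p = 0.916, edgeR), and its sign depended on single WT libraries: it was -0.25 without WT female 2 and 0.33 without WT female 1.

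Hells, the chromatin remodeller, was the only member with a negative difference over both sexes. It had 13.8, 12.9 and 13.6 CPM in KO females, 13.6, 15.5 and 15.7 CPM in KO males, 15.1 and 7.47 CPM in WT females, and 34.3, 21.2 and 14.2 CPM in WT males. The KO libraries lay close together, and 2 WT males exceeded all of them. KO libraries averaged 14.2 ± 1.14 CPM (SD, n = 6) and WT libraries 18.4 ± 10.1 CPM (SD, n = 5). Over both sexes its log2 fold change was -0.25 (SE 0.26, adjusted p = 0.635, edgeR).

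Within males, the Hells log2 fold change was -0.64 (SE 0.30, adjusted p = 0.245, edgeR), and within females it was 0.25. The male value minus the female value was -0.89 (SE 0.46, adjusted p = 0.433, edgeR) and was not called. A proliferation score, the mean log2 CPM of 20 S-phase and mitosis genes, was 4.94 to 5.51 in KO libraries and 3.90 to 6.09 in WT libraries. Its genes lay on the same side as Hells within each sex: 18 of 20 log2 fold changes were negative in males (median -0.24) and 20 of 20 were positive in females (median 0.34), with none called by edgeR. With this score as a covariate the male Hells value was -0.38 (SE 0.09, adjusted p = 0.0346, edgeR). Of 20 alternatives this was the only 1 in which Hells was called in males. That fit called 2256 of 22960 entries in males, against 459 without the score. Adjusted p for Hells ran from 0.0346 to 0.800 over the 20 alternatives. The score and the Hells level came from the same libraries.

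The 3 maintenance genes and the proliferation score had the same libraries at both ends of their order. WT male 1 ranked first of 11 and WT female 2 last of 11 for the score and for Dnmt1, Uhrf1 and Hells alike. Between these ends the orders differed: WT male 3 was 7th for the score and 10th for Dnmt1, and KO male 1 was 5th for the score and 9th for Hells. The low end was not particular to these 3 genes: WT female 2 was also last for Dnmt3a, Dnmt3b and Tet3. It was 10th for Tet1 and Mbd2, and had the lowest limma-voom quality weight (0.141). Genes of a library share its depth and culture. Across the 11 libraries Pearson's r of log2 CPM was 0.90 for Uhrf1 with Hells, 0.87 for Dnmt1 with Uhrf1 and 0.80 for Dnmt1 with Hells. Over the 9 libraries other than WT male 1 and WT female 2 these were 0.82, 0.73 and 0.34, so the pair of Dnmt1 and Hells rested largely on those 2 libraries. Other members were as close over the 9 libraries, with 0.83 for Dnmt1 with Dnmt3a and 0.81 for Uhrf1 with Mbd2. Tet2 ran the other way, highest in WT female 2 and lowest in WT male 1, with an r of -0.90 with Hells and -0.49 without those 2 libraries. In bulk RNA, fewer cells of a type and less RNA per cell cannot be told apart, and the part of proliferation in these values was not tested.

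**Figure D2:**
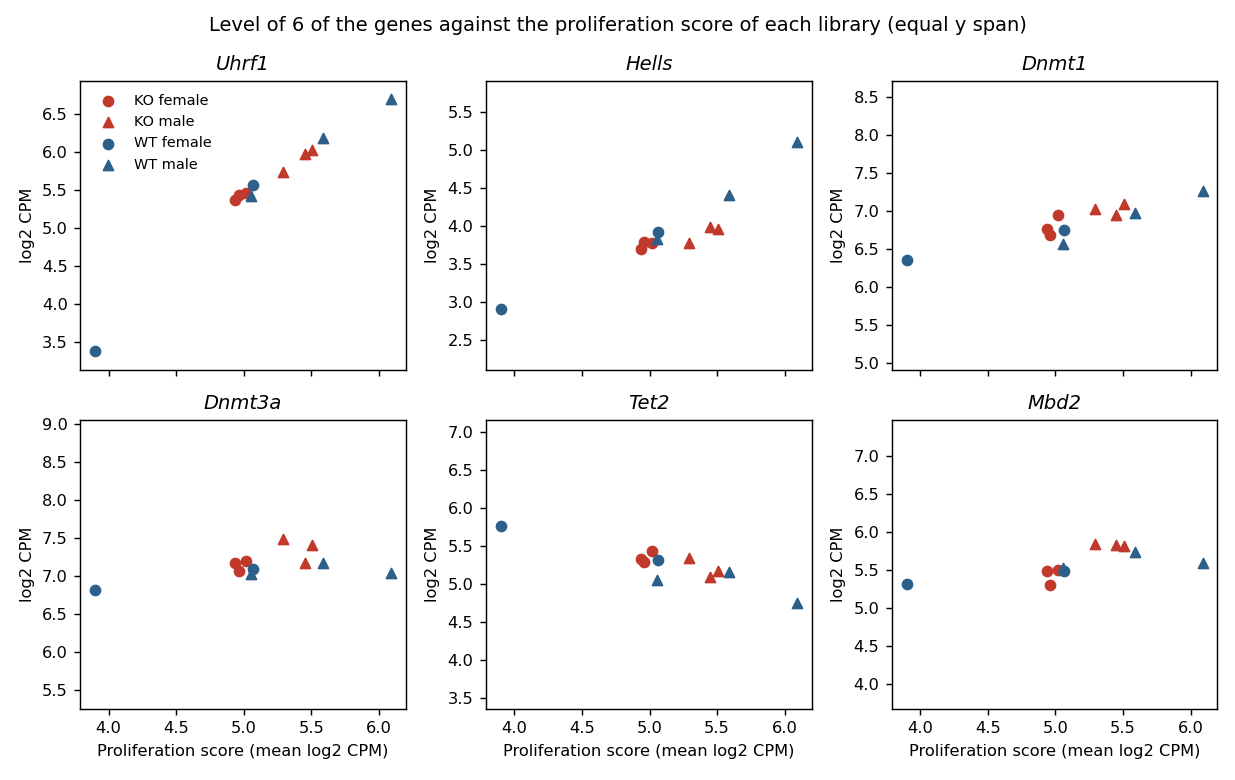
Log2 CPM of 6 of the genes (y axis, the same span in every panel) against the proliferation score (x axis, mean log2 CPM of 20 cell-cycle genes), 1 point per library, KO in red and WT in blue. Uhrf1, Hells and Dnmt1 are highest in the WT male with a score of 6.09 and lowest in the WT female with a score of 3.90, and Tet2 has the reverse order at both ends.

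Dnmt3a, which sets new methylation, gave the smallest p of the members over both sexes. Its levels were 134, 145 and 147 CPM in KO females, 180, 170 and 144 CPM in KO males, 137 and 113 CPM in WT females, and 132, 145 and 130 CPM in WT males. KO males 1 and 2 were the highest libraries and WT female 2 the lowest, with overlap in each sex. KO libraries averaged 153 ± 17.7 CPM (SD, n = 6) and WT libraries 131 ± 11.9 CPM (SD, n = 5).

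The log2 fold change of Dnmt3a was 0.24 (SE 0.08, unadjusted p = 0.0133, adjusted p = 0.202, edgeR), which did not pass the threshold. Limma-voom with quality weights called it over both sexes (0.20, adjusted p = 0.0463) and in males (0.26, adjusted p = 0.0364). Adjusted p ran from 0.0463 to 1.00 over 20 alternatives in both sexes and from 0.0364 to 0.881 in males. KO males 1 and 2 also had the highest leukocyte marker scores. The summed level of the 12 leukocyte markers was 7784 to 13092 CPM in KO and 5457 to 8111 CPM in WT libraries, and all 12 differences were positive with a median log2 fold change of 0.52, none called. In males alone 4 of the 12 were called higher in KO, with a median of 0.82. Epithelial and endothelial markers also differed between the groups in males. All 7 epithelial markers tested had negative log2 fold changes over both sexes (median -0.90, none called) and in males (median -1.39, with Krt19 called). Summed epithelial levels were 10.6 to 37.0 CPM in KO libraries and 22.3 to 54.6 CPM in WT libraries. Of the 7 endothelial markers, 5 were negative in males (median -0.93) and Vwf was called higher in KO at 1.22, and summed levels were 55.3 to 103 CPM in KO libraries and 39.9 to 87.0 CPM in WT libraries. With the leukocyte score held as a covariate, the log2 fold change of Dnmt3a was 0.0026 over both sexes and -0.07 in males. That fit moved all entries: an unadjusted edgeR p under 0.05 was found for 1.03% over both sexes, against 17.2% without the score. In males it was found for 5.06%, against 22.2%. The score ran from 8.51 to 9.16 in KO and from 7.89 to 8.57 in WT libraries, so it overlapped little between the genotypes. Whether these cell types have a part in the Dnmt3a difference was not tested. An antisense gene, Dnmt3aos, overlaps the exons of Dnmt3a and had 13 to 49 counts a library, which cannot be separated without strand.

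Dnmt3b, the second enzyme of this kind, was scarce, with 40 to 96 counts a library. It had 1.10 to 1.95 CPM in KO libraries, with a median of 1.65 CPM, and 1.04 to 1.98 CPM in WT libraries, with a median of 1.37 CPM. Dnmt3b had a log2 fold change of 0.17 (SE 0.17, adjusted p = 0.618, edgeR). Per exon length, Dnmt3a made up 95.8% to 97.4% of the Dnmt3a and Dnmt3b signal in KO libraries and 95.7% to 97.1% in WT libraries.

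Of the Tet genes, Tet3 was the most abundant per exon length. It had 116, 117 and 115 CPM in KO females, 117, 111 and 105 CPM in KO males, 111 and 84.9 CPM in WT females, and 115, 101 and 102 CPM in WT males. All 3 KO females lay above both WT females, while the males overlapped. Its log2 fold change was 0.15 (SE 0.08, adjusted p = 0.372, edgeR) over both sexes and 0.25 (SE 0.12, adjusted p = 0.692, edgeR) in females. Without WT female 1, which leaves 1 WT female, the female value was 0.46, and values over 20 alternatives ran from 0.064 to 0.46.

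Tet2 had 39.0, 40.0 and 43.1 CPM in KO females, 40.4, 35.9 and 33.9 CPM in KO males, 39.7 and 53.9 CPM in WT females, and 26.8, 35.4 and 32.9 CPM in WT males. Both the highest and the lowest library were WT. The log2 fold change was 0.03 (SE 0.12, adjusted p = 0.932, edgeR) over both sexes, 0.21 in males and -0.20 in females. The male value minus the female value was 0.41 (SE 0.20, unadjusted p = 0.0693, adjusted p = 0.417, edgeR) and was not called.

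Tet1 was scarce, with 5.14, 6.56 and 6.29 CPM in KO females, 3.97, 3.89 and 5.49 CPM in KO males, 7.33 and 3.40 CPM in WT females, and 2.98, 4.77 and 4.84 CPM in WT males. The 2 WT females enclosed all KO values between them. Tet1 had a log2 fold change of 0.12 (SE 0.20, adjusted p = 0.794, edgeR). Per exon length, Tet3 gave 69.9% to 73.6% of the summed signal of the 3 Tet genes in KO libraries and 59.8% to 79.4% in WT libraries, Tet2 gave 23.3% to 26.0% in KO and 18.4% to 37.6% in WT, and Tet1 gave 2.67% to 4.32% in KO and 2.23% to 5.02% in WT. The KO libraries lay within the range of the WT libraries for each of the 3 shares.

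Mbd2, the reader that brings in NuRD, had 39.2, 44.8 and 44.9 CPM in KO females, 57.3, 55.9 and 56.6 CPM in KO males, 44.6 and 39.8 CPM in WT females, and 48.0, 53.2 and 45.8 CPM in WT males. KO males lay above WT males without overlap, and every male lay above every female. Between KO and WT its log2 fold change was 0.13 (SE 0.07, adjusted p = 0.373, edgeR) over both sexes, 0.21 (SE 0.09, adjusted p = 0.214, edgeR) in males and 0.03 in females.

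Mbd2 was the only member called between the sexes. Its level was 0.32 higher in males than in females on the log2 scale (SE 0.07, adjusted p = 0.0418, edgeR), 1 of 9 members called where 4.29% of all entries were. The call was kept without 3 of the 11 libraries in turn and lost without the other 8, with log2 differences of 0.28 to 0.37 and adjusted p of 0.0119 to 0.104. Over 19 alternatives the log2 difference was 0.28 to 0.37 and adjusted p ran from 0.0016 to 0.231. With the proliferation score as a covariate adjusted p was 0.231 (edgeR). That fit called 54 of 22298 entries between the sexes, against 956 without the score. The deposited tables of male and female libraries are named in different styles, no label gives a preparation batch, and whether the sexes were prepared apart is not known. Limma-voom with quality weights called 4 members between the sexes, Uhrf1 (0.63), Dnmt3a (0.20) and Mbd2 (0.35) higher in males and Tet1 (-0.52) lower, where it called 26.8% of all entries. Mbd2 was also the one member whose male and female libraries did not overlap, where 5.09% of all entries did not.

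Within each sex the members were again not called. In males 0 of 9 were called by edgeR, where 2.00% of all entries were, and 7 of 9 differences were positive with a median log2 fold change of 0.07, against -0.02 over all entries. In females 0 of 9 were called, where 0.00436% of all entries were, and 8 of 9 were positive with a median of 0.23, against 0.01 over all entries. The genotype-by-sex test called 0 of 9, where 0% of all 22960 entries were called. KO and WT libraries did not overlap for 1 member in males, Mbd2, where 30.9% of all entries did not overlap, and for 1 in females, Tet3, where 19.0% did not. Limma-voom with quality weights called 1 member in males, Dnmt3a, where it called 20.0% of all entries. These backgrounds rest on single libraries. Leaving out each of the 11 libraries in turn moved the 459 entries called in males to between 0 (without KO male 1, for example) and 2065 (without WT female 1), and the 956 called between the sexes to between 104 (without KO male 2) and 3340 (without WT female 1), by over 1.5 times each time. The 1 entry called in females became 0 to 3709, the highest without WT female 1.

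Uhrf1 in females showed how far these values rest on single WT animals. The value was a log2 fold change of 0.57 (SE 0.50, adjusted p = 0.710, edgeR) with both WT females. It was 2.07 without WT female 1 and -0.15 without WT female 2, and leaving out either leaves 1 WT female. The difference between males and females in the KO effect on Uhrf1 was -0.84 (SE 0.67, adjusted p = 0.599, edgeR). Without WT female 1 that difference was -2.33, and over 20 alternatives it ran from -2.33 to -0.062.

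**Figure D3:**
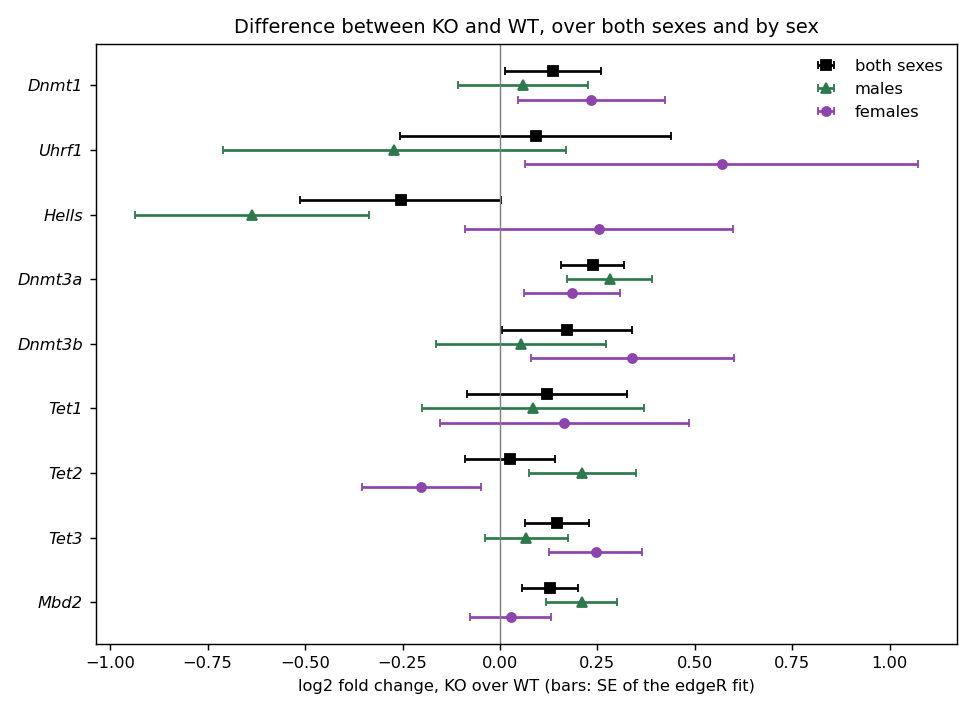
Log2 fold change of KO over WT (x axis) for the 9 genes (y axis), with bars for the SE of the edgeR fit, over both sexes (black squares), in males (green triangles) and in females (purple circles). Hells lies at -0.64 in males and 0.25 in females, and none of the 27 values passed an adjusted p of 0.05.

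Compared per kilobase of exon, the members covered a wide range of levels. The median CPM per kilobase over the 11 libraries was 16.7 for Dnmt1, 14.3 for Mbd2, 11.1 for Uhrf1, 8.68 for Dnmt3a and 6.64 for Tet3. It was 2.31 for Tet2, 1.97 for Hells, 0.323 for Dnmt3b and 0.313 for Tet1. Tet3 lay above Tet2, and Hells above Dnmt3b, without overlap of their libraries, and these were the only neighbours in the order with separate ranges. Exon lengths came from GENCODE vM21 on GRCm38, and the length used in the authors' counting is not known.

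**Figure D4:**
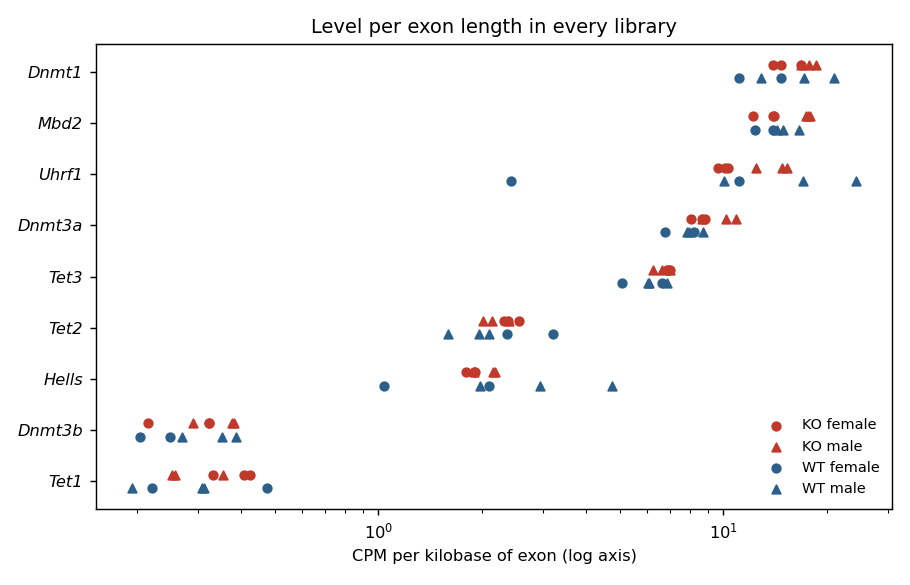
CPM per kilobase of exon (x axis, log scale) of the 9 genes (y axis) in every library, KO in red above WT in blue, circles for females and triangles for males. Dnmt1, Mbd2 and Uhrf1 lead, Dnmt3b and Tet1 are at about 0.3, and Uhrf1 spreads most, from 2.42 to 24.3 in WT libraries.

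The named genes whose log2 CPM was most like each member's, among 11841 genes over the 11 libraries, differed by member. Uhrf1 was closest to Mcm5 (Pearson's r 0.998), a replication helicase subunit, and to Hist1h2bk and Hist1h3g, replication histones. Dnmt1 was closest to Ckap5 (0.982), Cbfb and Ncaph2, and Hells to Pop4 (0.995), Cip2a and Phykpl. Dnmt3a was closest to Tbc1d9 (0.988), Bmp2k and H3f3a, and Dnmt3b to Dnase1 (0.923), Smpdl3b and Agtpbp1. Tet1 was closest to Spry2 (0.979), Kdm4b and Sparcl1, and Tet2 to Zfp780b (0.984), Nsun6 and Rtl5. Tet3 was closest to Cd163 (0.957), a macrophage receptor, Irak1 and Cited2, and Mbd2 to Pnp (0.978), Sdf2l1 and Capg. Genes measured in the same 11 libraries share each library's depth, sex and culture. These r values were not recomputed without WT male 1 and WT female 2, the ends of the order for several members. Reads of the replication histones may be split among near-identical copies.

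Partner genes of these proteins were counted in the same way, with Hdac1 standing in 2 of the lists. Of 100 genes in 7 lists, 78 were tested over both sexes and 0 were called by edgeR, with 37 positive and 41 negative differences and a median log2 fold change of -0.01, against -0.02 over all entries. An unadjusted edgeR p under 0.05 was found for 6 of the 78, against 17.2% of all entries. DESeq2 called 2 of the 78, where it called 2.45% of all entries, and limma-voom with quality weights called 7, where it called 14.6%. The library weights of limma-voom ran from 0.141 (WT female 2) to 5.52 (WT male 2).

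Among partners of maintenance, 6 of 10 tested were positive and edgeR called none, with Pcna, the replication clamp that also counts in the proliferation score, at 0.27, Dmap1 at 0.14 and Cdca7l at 0.19. Dmap1 was called by limma-voom with quality weights (0.23, adjusted p = 0.0359). Among partners of new methylation and its histone marks, 4 of 11 were positive, among them the histone methyltransferases Setdb1 (0.20) and Ehmt2 (0.14) and the RNA methyltransferase Trdmt1 (0.27). Setdb1 was called by limma-voom with quality weights (0.22, adjusted p = 0.0428). Among other readers of methylated DNA, 5 of 8 were positive, with Mbd6 at 0.11, Zbtb4 at 0.12 and Zbtb38 at -0.11. In NuRD, 5 of 12 were positive, with Mta1 at -0.21 (SE 0.06, adjusted p = 0.179, edgeR), Cdk2ap1 at -0.27 and Hdac2 at -0.19. DESeq2 called Mta1 (-0.22, adjusted p = 0.0282), and limma-voom with quality weights called Hdac2 (-0.26, adjusted p = 0.0278).

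Among 17 tested genes of the removal pathway and its cofactors, 10 were positive. Idh1, which makes the 2-oxoglutarate that TET enzymes use, had 127 to 190 CPM in KO libraries and 90.4 to 123 CPM in WT libraries, with no overlap. Over both sexes the log2 fold change was 0.55 (SE 0.12, adjusted p = 0.179, edgeR), and DESeq2 called it (0.54, adjusted p = 0.0087), as did limma-voom with quality weights (0.51, adjusted p = 0.0171). With the leukocyte score held as a covariate, the value over both sexes was 0.20, and adjusted p over 20 alternatives ran from 0.0087 to 1.00. In males it had 190, 171 and 155 CPM in KO, against 90.4, 119 and 97.4 CPM in WT. The male log2 fold change was 0.75 (SE 0.13, adjusted p = 0.0475, edgeR), 1 of 81 partner genes called in males, where 2.00% of all entries were. This call was kept without 4 of 11 libraries in turn and lost without 7, and adjusted p over 20 alternatives ran from 0.000106 to 0.800. The same covariate gave a male value of 0.36, in a fit where fewer of all entries had a small unadjusted edgeR p. Gadd45g, which is tied to DNA repair at methylated sites, was at -0.58 (SE 0.20, adjusted p = 0.201, edgeR), and Gadd45b was at -0.50. Ogt was at -0.12 (adjusted p = 0.430, edgeR) and was called by limma-voom with quality weights (-0.25, adjusted p = 0.0297).

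In the methyl donor cycle 5 of 14 were positive, with Ahcy, which clears the product of methyl transfer, at -0.38 (SE 0.14, adjusted p = 0.222, edgeR), Ahcyl2 at 0.22 and Mtr at 0.14. Limma-voom with quality weights called Ahcy (-0.40, adjusted p = 0.0368) and Ahcyl2 (0.33, adjusted p = 0.0412). Germline genes known to be silenced by methylation were mostly near the detection limit: 13 of 20 did not pass the filter on low counts. Of these, Asz1, Mov10l1, Rpl10l, Sycp1 and Tex19.1 had 0 counts in all 11 libraries, which allows up to 3 counts a library, or 0.0624 to 0.110 CPM. Among the 7 that passed, 3 were positive and 0 were called, with Sycp3 at 0.18, Stag3 at -0.41 and Tdrd1 at -0.23. Tdrkh had 183 to 404 counts, the highest of the list.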

How the data were processed

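RNA of 11 mouse lung fibroblast libraries was sequenced, and the authors deposited 1 table of raw counts per library, with 58223 entries (56980 Ensembl genes and 1243 repeat subfamilies) not normalized. Per the submitters' processing notes, Trim Galore and STAR were used and the genome build was GRCm39. Tool versions, the counter, strand setting, handling of multi-mapped reads and annotation are not given in the sources used here, so reads of overlapping genes and close copies cannot be told apart. The labels' extraction text speaks of tissue, while the samples are labelled as cultured cells. Symbols came from GENCODE vM21 on GRCm38 (52073 of 56980 IDs matched), used for names and exon lengths only, and RefSeq promoters came from GRCm38.p6.

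Counts were tested with edgeR 4.0.16 in R 4.3.3 by quasi-likelihood F-tests, with filterByExpr at a minimum count of 10, TMM scaling (factors 0.951 to 1.04) and Benjamini-Hochberg adjustment over all entries tested, at a threshold of 0.05. The model for both sexes and for the sex difference held sex and genotype, and within-sex and genotype-by-sex values came from a model with a mean per group. Scripts were tested on simulated data. Each library is 1 animal, per the design text, and libraries of a group differed by more than sampling noise (chi-square per degree of freedom 12.5 to 149). A floor of 3 counts reflects counting error alone, because no molecular identifiers mark independent molecules. Alternatives were RLE scaling, DESeq2 1.42.0, limma-voom with quality weights (limma 3.58.1), no filter, genes only, the replicate block, proliferation or leukocyte scores as covariates, leaving out WT female 2 with KO male 1, and leaving out each library.

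The members and lists were chosen with earlier results of these data known. Named genes were Cgas, the 9 members, the 3 genes of smallest p in each partner list with any gene called, and the 3 genes most like each member among those with a mean log2 CPM of at least 1. Alternatives for the genotype-by-sex values of Uhrf1, Hells and Tet2, for the sex difference of Mbd2 and for Idh1 were added after seeing the data.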

Additional observations from a re-analysis of the deposited data

How the results depend on the processing

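Over both sexes edgeR called 1 entry, Cgas. The count was 546 with DESeq2, 3259 with limma-voom with quality weights, 3 with no filter, 0 with the replicate block and 0 with the leukocyte score as a covariate, and 1 to 1678 when each library was left out in turn, the highest without WT female 1. Partner genes called numbered 2 with DESeq2, 7 with limma-voom and 0 to 2 without single libraries. Members called numbered 1 with limma-voom over both sexes and 1 in males, where it called 3259 of 22298 and 4584 of 22960 entries. With the proliferation score as a covariate 1 member was called in males, where 2256 of 22960 entries were. The count of members called was 0 in females and for genotype by sex, except without WT female 1. That fit leaves 1 WT female and also called the most of all entries in both tests. For males against females the count was 4 with limma-voom and 0 with the proliferation score, where 54 of 22298 entries were called. It was 0 without WT female 2 and KO male 1, and 0 to 1 without single libraries.

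Signs of small log2 fold changes of KO over WT turned in these cases, and the cause was not tested. With genes only, Tet2 over both sexes was -0.00076. With the leukocyte score the values over both sexes were -0.0016 for Dnmt1, -0.12 for Uhrf1, -0.0024 for Tet1, -0.0594 for Tet2 and -0.0177 for Mbd2, those in males were -0.25 for Dnmt1, -0.0735 for Dnmt3a, -0.12 for Dnmt3b, -0.16 for Tet1 and -0.16 for Tet3, and Mbd2 in females was -0.0483. With limma-voom they were -0.0271 for Dnmt3b, -0.11 for Uhrf1 and -0.13 for Tet1 over both sexes, and -0.0028 for Dnmt3b and -0.16 for Tet1 in males. With the proliferation score they were -0.17 for Hells and -0.0243 for Mbd2 in females and 0.0649 for Uhrf1 in males. Without WT female 2 and KO male 1 they were -0.0366 for Tet1 and -0.19 for Uhrf1 over both sexes, -0.00048 for Tet3 in males, and -0.17 for Hells, -0.0581 for Mbd2, -0.29 for Tet1, 0.0316 for Tet2 and -0.15 for Uhrf1 in females.

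Without single libraries, values over both sexes ran from -0.25 to 0.33 for Uhrf1, -0.0629 to 0.31 for Tet1 and -0.0685 to 0.13 for Tet2. In males they ran from -0.10 to 0.24 for Dnmt1, -0.0808 to 0.17 for Dnmt3b, -0.54 to 0.0666 for Uhrf1, -0.11 to 0.20 for Tet1 and -0.0029 to 0.13 for Tet3. In females they ran from -0.15 to 2.07 for Uhrf1, -0.17 to 0.86 for Hells, -0.29 to 0.83 for Tet1, -0.39 to 0.0328 for Tet2 and -0.0570 to 0.13 for Mbd2. Where 1 WT female was left, it was assumed to vary like the other groups.

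Same-numbered KO and WT libraries of a sex had an r of deviations of -0.145 to 0.0731, against -0.238 to 0.192 for other pairs. So few pairs cannot show whether the numbers pair the samples, and the labels do not say what the numbers mark. With the replicate block the Mbd2 value in females was -0.0053, and no member was called between KO and WT.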
